A study of Mus musculus with 12 samples.

Results

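Serpins are a family of structurally related proteins, most of which inhibit proteases. The Serpin genes measured in mouse dorsal skin were taken as every row of the expression table whose gene symbol is Serpin followed by a clade letter from a to i and a number. This rule found 63 of the 36400 genes in the table. Clade A held 28 of them, clade B 25 and clades C to I the other 10. A list of 10 clade B genes of squamous epithelium (Serpinb2, Serpinb3a, Serpinb3b, Serpinb3c, Serpinb3d, Serpinb5, Serpinb7, Serpinb11, Serpinb12 and Serpinb13) was set against the other 53 members.

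RNA was sequenced from whole dorsal skin taken on day 30 from 4 groups of 3 female BALB/c mice, which had been bought at 6 weeks of age. The control group received solvent only (acetone and olive oil), and the DNCB group was sensitized with 1% and challenged with 0.5% dinitrochlorobenzene, a contact allergen used to make atopic dermatitis-like skin. The scMSC and scivMSC groups received the same DNCB and, between days 13 and 25, 4 doses of 2000000 mesenchymal stem cells (MSCs) from human umbilical cord. The scMSC mice received the whole 100 µL subcutaneously on the back, while for scivMSC mice it was divided into 50 µL given that way and 50 µL given through the tail vein. The control group therefore differs from the MSC groups by both DNCB and the injected cells, and no group received cells without DNCB. No injection of culture solution alone is described for the control or DNCB mice, so effects of the cells and of their injection cannot be told apart. Whole skin mixes epidermis, dermis, glands and muscle, so that fewer cells of a type and less RNA per cell cannot be told apart.

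A serpin traps its target protease by offering a reactive loop as bait: the protease cuts the loop and is locked in a covalent complex that destroys the activity of both partners. Clade A serpins are mostly secreted proteins of plasma, such as antitrypsin and antichymotrypsin, whereas clade B serpins lack a classical signal peptide and act mainly inside cells, where they guard against leaked lysosomal and granule proteases. Several clade B genes are made chiefly by stratified epithelia such as epidermis, and others by leukocytes. A few members, among them maspin (Serpinb5) and the collagen chaperone Serpinh1, do not inhibit proteases.

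Levels below are FPKM (fragments per kilobase of transcript per unit of library size, scaled by the authors), and fold changes are log2 values with their standard error (SE) from edgeR on the estimated counts. A change was called where the p adjusted after Benjamini-Hochberg was below 0.05 and the log2 fold change exceeded 1 in size. Of the 63 members, 52 had a mean of at least 0.1 FPKM and were tested, including all 10 of the squamous list. Libraries held 63877153 to 75134001 estimated counts. The basal keratinocyte list (Krt5, Krt14, Itga6, Col17a1 and Trp63) was detected in every library, with a sum of at least 1561 FPKM. Library scivMSC 2 stood apart by stress keratins (Krt6a, Krt6b, Krt16 and Krt17), which summed to 4581 FPKM against 1152 and 1208 in the other 2 libraries of its group. Library scivMSC 3 stood apart by its fibroblast list (Col1a1, Col1a2, Col3a1, Pdgfra, Dcn and Lum), with 124 FPKM against 699 and 946. Where the call of a Serpin gene was lost in any of the 12 fits that left out 1 library, those fits are given.

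The 12 clade B genes on chromosome 1 form 1 array of 749 kb (positions 106861173 to 107610484 in GRCm38), and the other 13 lie on chromosome 13, while 27 of the 28 clade A genes lie on chromosome 12. The 250 bases before the transcription start of 4 genes of the array are shown because these genes moved differently although they are neighbours: Serpinb12, Serpinb3a and Serpinb3b rose in DNCB skin and Serpinb7 fell. The sequences are from RefSeq in build GRCm38.p6, written 5′ to 3′ on the strand of the gene. Capitals mark the letters TGANTCA, a wider form of the AP-1 consensus (TGAGTCA or TGACTCA) with its middle base left free. The window of Serpinb12 is chr1:106934199-106934448 (plus strand; a second start of this gene, with the window chr1:106938707-106938956, held no match and is not shown), that of Serpinb7 chr1:107422439-107422688 (plus strand, at a start inside the annotated span of the gene), that of Serpinb3a chr1:107052304-107052553 (minus strand) and that of Serpinb3b chr1:107161115-107161364 (minus strand, also at a start inside the annotated span).
Serpinb12: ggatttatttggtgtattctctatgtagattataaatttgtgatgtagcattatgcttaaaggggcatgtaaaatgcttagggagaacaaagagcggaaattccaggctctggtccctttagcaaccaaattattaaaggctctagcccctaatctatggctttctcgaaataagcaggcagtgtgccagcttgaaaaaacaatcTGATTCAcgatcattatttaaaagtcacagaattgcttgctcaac
Serpinb7: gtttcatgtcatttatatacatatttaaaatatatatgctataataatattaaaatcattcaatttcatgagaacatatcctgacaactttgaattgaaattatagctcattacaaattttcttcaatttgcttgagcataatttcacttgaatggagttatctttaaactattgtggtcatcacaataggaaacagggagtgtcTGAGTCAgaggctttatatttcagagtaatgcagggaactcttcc
Serpinb3a: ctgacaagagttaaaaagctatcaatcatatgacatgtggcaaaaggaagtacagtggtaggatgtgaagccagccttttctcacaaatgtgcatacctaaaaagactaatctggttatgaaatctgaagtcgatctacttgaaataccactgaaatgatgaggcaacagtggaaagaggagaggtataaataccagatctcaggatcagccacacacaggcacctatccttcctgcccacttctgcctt
Serpinb3b: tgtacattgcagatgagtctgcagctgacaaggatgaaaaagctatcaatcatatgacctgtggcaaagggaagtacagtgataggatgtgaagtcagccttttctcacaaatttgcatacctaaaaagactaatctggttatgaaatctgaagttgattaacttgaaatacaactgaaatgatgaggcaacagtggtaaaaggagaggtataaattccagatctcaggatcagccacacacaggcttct

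The match in both Serpinb12, a riser, and Serpinb7, a faller, was centred 42 bases before the start, while the windows of Serpinb3a and Serpinb3b, which both rose, held none. The middle base differed, with TGATTCA in Serpinb12 and TGAGTCA, the consensus, in Serpinb7. The Serpinb3a and Serpinb3b windows were identical at 92.5% of 226 aligned bases, and yet the genes differed in the size of their change, as given below. Over the array, 7 of the 11 genes with an entry held a match (Serpinb2, Serpinb5, Serpinb7, Serpinb8, Serpinb10, Serpinb11 and Serpinb12), against 0 of 12 clade B genes on chromosome 13 and 7.82% of all 27025 genes. Only Serpinb7 and Serpinb8 of these held the consensus itself (TGAGTCA), and the others held TGAATCA or TGATTCA. The share of all genes with the consensus itself was not counted. By entry, 6 of 11 windows of the squamous list (54.5%) and 6 of 46 of the other members (13%) held TGANTCA, against 6.75% of 32851 windows in all. The overlapping windows of Serpinb2 shared a match and were counted separately. Searches for TTCNNNGAA (STAT), the same motif with 1 more free base (STAT6) and TGACNNNGC (a partial NFE2L2 site), on both strands, found each in 1 of the 11 squamous windows, against 7.02%, 5.85% and 10.2% of all windows. These motifs were chosen after the expression values were seen, a match describes letters only, and an NFE2L2 match may share its TGA with an AP-1 match.

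DNCB skin against control skin shows which Serpin transcripts differed in level between these whole-skin samples. In the squamous list 5 genes rose and 2 fell (7 of 10, or 70.0%), and among the other 42 tested members 7 rose and 6 fell (31.0%), where 14.2% of all 21890 genes tested were called (6.59% higher and 7.57% lower). Against scMSC skin, again 5 squamous genes were higher in DNCB and 2 lower (70.0%), beside 7 higher and 4 lower among the others (26.2%; background 8.5%, of which 3.84% higher and 4.66% lower). Against scivMSC skin, 3 squamous genes were higher and 2 lower (50.0%), beside 3 higher and 7 lower (23.8%; background 5.46%, of which 2.33% higher and 3.13% lower). The median log2 fold change of the squamous list was 1.03, 1.58 and 0.858 in the 3 comparisons, that of the other members 0.191, 0.392 and 0.629, and that of all genes 0.0216, -0.0162 and -0.0229. The 3 comparisons share the DNCB libraries. Members of a list share cells and regulators and are no replicates, so the lists were compared by these counts and medians without a test.

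**Figure D1:**
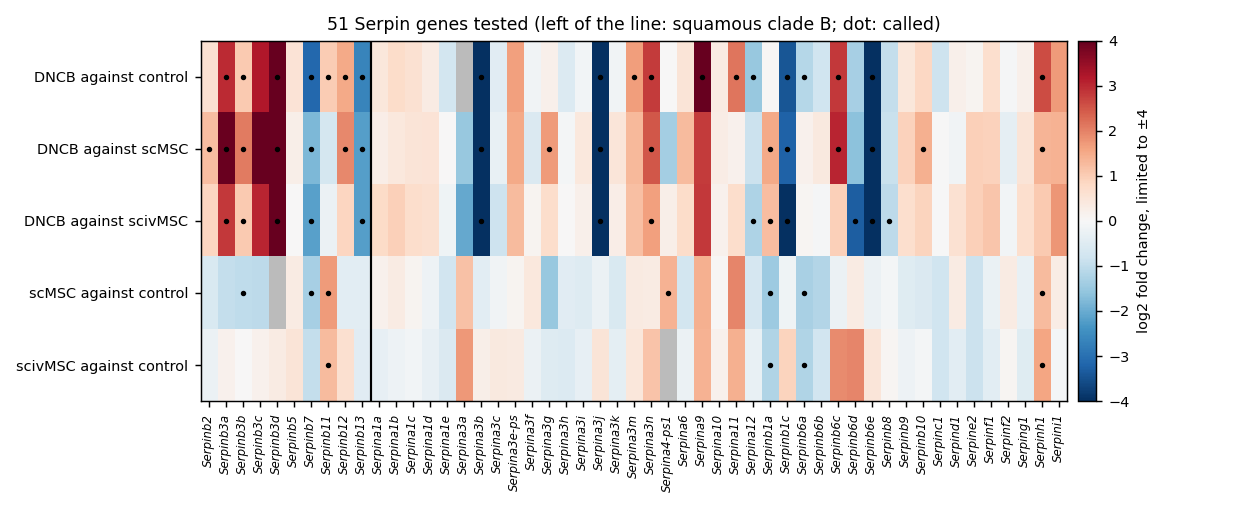
Log2 fold changes (edgeR; color, limited to ±4) of 51 of the 52 tested Serpin genes (x axis, the squamous clade B list left of the line) in 5 comparisons (y axis). Dots mark called changes, a gene at the floor in 1 group is drawn at its bound and grey marks a pair of groups both at the floor. Most dots lie in the 3 upper rows, with 19, 17 and 14 called genes, against 7 and 4 in the 2 lower rows.

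Among genes of the squamous list, Serpinb3a, Serpinb3b and Serpinb3d rose in DNCB skin against each of the other groups. They are mouse relatives of the human squamous cell carcinoma antigens, which inhibit cysteine cathepsins or chymotrypsin-like serine proteases. Serpinb3a had 0.616, 6.87 and 7.80 FPKM in the control libraries, 41.5, 57.9 and 38.1 in DNCB skin, 3.47, 2.46 and 2.92 in scMSC and 7.27, 6.99 and 5.23 in scivMSC. All 3 DNCB libraries were above all 9 others, and control 1 was far below the other controls. The log2 fold change was 3.00 ± 0.65 (SE) against control (edgeR adjusted p = 0.0072), 3.94 ± 0.68 against scMSC (0.0048) and 2.82 ± 0.64 against scivMSC (0.025). The last call was lost in 6 of 12 fits that left out 1 library, namely any DNCB or any scivMSC library (log2 fold change 2.60 to 2.94, edgeR adjusted p 0.001 to 0.0904).

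Serpinb3b, the most abundant of the 4 Serpinb3 genes, had 30.6, 46.8 and 59.6 FPKM in control, 102, 122 and 97.1 in DNCB skin, 36.2, 20.7 and 18.9 in scMSC and 56.2, 61.8 and 39.2 in scivMSC. Its DNCB libraries again stood above all others, with a smaller change than Serpinb3a: 1.06 ± 0.27 against control (edgeR adjusted p = 0.015), 2.07 ± 0.28 against scMSC (0.0022) and 1.03 ± 0.27 against scivMSC (0.040). The first call was lost without control 1 or without DNCB 2 (log2 fold change 0.812 to 1.21, edgeR adjusted p 0.00777 to 0.0702 over the 12 fits). The call against scivMSC was lost in 8 of 12 fits, those without control 2, any DNCB library, scMSC 2 or any scivMSC library (0.880 to 1.15, edgeR adjusted p 0.0237 to 0.143). The table's Serpinb3b locus spans that of Serpinb3c, so reads of the 2 genes may have been shared.

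Serpinb3d was near 0 outside DNCB skin. It had 6.18, 7.65 and 5.47 FPKM in DNCB skin, against 0, 0.0419 and 0 in control, 0 in every scMSC library and 0.0808, 0.503 and 0 in scivMSC. Control and scMSC were at the floor of 3 fragments per library, so Serpinb3d was at least 41.5-fold higher in DNCB than in control and at least 52.1-fold higher than in scMSC. Against scivMSC the log2 fold change was 5.01 ± 1.25 (edgeR adjusted p = 0.043), which was 7.07 without scivMSC 2, the library with most of that group's reads. This call was lost in 8 of 12 fits, those without any control or any DNCB library, scivMSC 1 or scivMSC 3 (edgeR adjusted p 0.0183 to 0.140). Serpinb3c was low, with 0.506 to 2.28 FPKM in DNCB and 0 to 0.303 in the 9 other libraries, and its difference of 3.21 ± 1.73 against control did not pass (edgeR adjusted p = 0.21).

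Transcripts of the Serpinb3 genes are 86.5% to 94.0% identical in GENCODE M21. Long exact stretches were rarely shared, with the most (2.09% of those of Serpinb3b) between Serpinb3b and Serpinb3c and 0.0% between Serpinb3d and any other member. Single values may still be mixed between members, so the family was also tested as a sum. The sum rose by 1.46 ± 0.29 on the log2 scale against control (edgeR adjusted p = 0.0045), 2.47 ± 0.30 against scMSC (0.0018) and 1.42 ± 0.29 against scivMSC (0.016).

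Serpinb12 and Serpinb2 also rose, in fewer comparisons. Serpinb12, an inhibitor of trypsin-like proteases made in epithelia, had 10.1, 22.1 and 26.3 FPKM in control, 57.8, 85.7 and 44.8 in DNCB skin, 24.6, 12.5 and 11.8 in scMSC and 33.0, 48.4 and 22.2 in scivMSC. DNCB was above all control and scMSC libraries but overlapped scivMSC 2. The gene rose by 1.52 ± 0.41 against control (edgeR adjusted p = 0.020) and 1.94 ± 0.41 against scMSC (0.012), and its difference from scivMSC of 0.87 ± 0.40 did not pass (0.23). The first call was lost without control 1 or DNCB 2 (log2 fold change 1.18 to 1.71, edgeR adjusted p 0.0153 to 0.0738) and the second without scMSC 2 (1.63 to 2.31, 0.00871 to 0.0546).

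Serpinb2 encodes plasminogen activator inhibitor type 2, which blocks urokinase. It had 26.0, 23.9 and 30.6 FPKM in control, 65.8, 37.1 and 37.1 in DNCB skin, 25.5, 23.8 and 9.34 in scMSC and 29.3, 27.4 and 21.1 in scivMSC. Although DNCB exceeded every other library, only the difference from scMSC passed, at 1.22 ± 0.34 (edgeR adjusted p = 0.040), and this call was lost in 10 of 12 fits, all but those without scMSC 1 or scivMSC 3 (0.883 to 1.46, edgeR adjusted p 0.0445 to 0.154). The difference from control was 0.62 ± 0.34 (edgeR adjusted p = 0.22).

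Serpinb7 and Serpinb13, in the same array, moved the other way. Serpinb7 (megsin), whose human counterpart is mutated in a palmoplantar keratoderma, had 23.4, 30.1 and 38.9 FPKM in control, 3.95, 4.26 and 3.68 in DNCB skin, 19.4, 12.2 and 9.51 in scMSC and 21.3, 15.2 and 16.8 in scivMSC. All DNCB libraries were below all others, and the MSC groups lay between DNCB and control without overlap with either. Serpinb7 fell by 3.13 ± 0.26 on the log2 scale in DNCB against control (edgeR adjusted p = 3.4e-04), and it was lower than in scMSC (-1.80 ± 0.25, 0.0024) and scivMSC (-2.17 ± 0.26, 0.0031). These 3 calls held under all 24 alternatives. In scMSC it stayed below control (-1.32 ± 0.25, edgeR adjusted p = 0.0052), and in scivMSC the difference of -0.96 ± 0.25 (0.028) missed the fold limit.

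Serpinb13 (headpin), an inhibitor of cathepsins K and L, had 4.02, 4.19 and 5.42 FPKM in control, 1.21, 0.706 and 0.551 in DNCB skin, 4.55, 3.91 and 2.86 in scMSC and 5.30, 2.21 and 3.78 in scivMSC. DNCB was again below all other libraries, by -2.64 ± 0.39 against control (edgeR adjusted p = 0.0013), -2.22 ± 0.38 against scMSC (0.0048) and -2.20 ± 0.38 against scivMSC (0.0091), under all 24 alternatives.

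Serpinb5 and Serpinb11 did not follow the division into DNCB and the rest. Serpinb5, which had the highest mean of all 63 genes (114 FPKM), had 59.6, 80.5 and 102 FPKM in control, 134, 140 and 126 in DNCB skin, 114, 128 and 92.1 in scMSC and 135, 157 and 101 in scivMSC. The 3 DNCB-exposed groups overlapped one another, and the difference of DNCB from control, 0.55 ± 0.20, did not pass (edgeR adjusted p = 0.073). Serpinb11, a trypsin inhibitor in the mouse, had 2.58, 3.55 and 3.23 FPKM in control, 6.67, 7.59 and 7.16 in DNCB skin, 6.63, 17.9 and 8.91 in scMSC and 9.62, 8.82 and 6.99 in scivMSC. All 9 DNCB-exposed libraries lay above the controls, by 1.01 ± 0.33 in DNCB (edgeR adjusted p = 0.046), 1.70 ± 0.34 in scMSC (0.0066) and 1.26 ± 0.33 in scivMSC (0.032).

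The Serpinb11 call in DNCB was at the limit and was lost in 10 of 12 fits, all but those without scMSC 1 or scMSC 3 (edgeR adjusted p 0.00515 to 0.163). The call in scivMSC was lost in 5 of 12 fits, without any control library, scivMSC 1 or scivMSC 2 (edgeR adjusted p 0.00434 to 0.130), and the change in scMSC was 1.05 without scMSC 2.

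**Figure D2:**
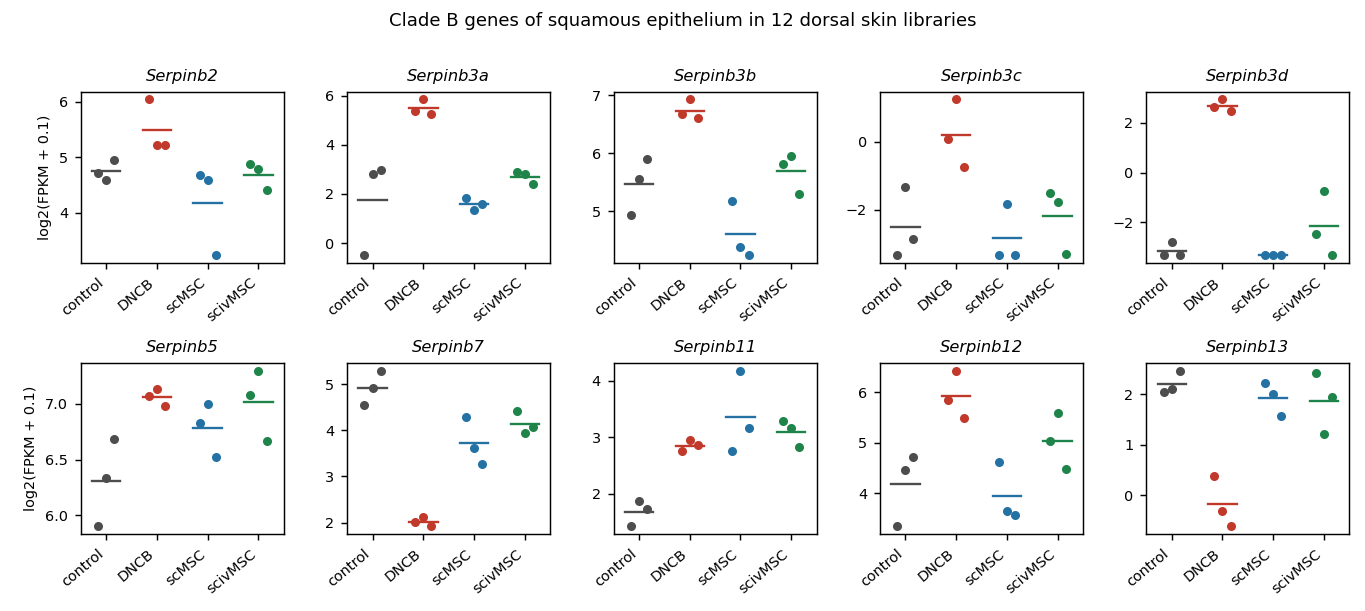
Levels of the 10 clade B genes of squamous epithelium, as log2(FPKM + 0.1) on the y axis, in the 4 groups. Points are libraries in the order 1 to 3 and lines are means of the 3 log2 values. DNCB stands above the other groups for Serpinb3a, Serpinb3b and Serpinb3d, and below them for Serpinb7 and Serpinb13.

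These opposite changes altered the makeup of the squamous set. Summed over the 10 genes, the level was 216 ± 58.7 FPKM (SD, n = 3) in control, 416 ± 52.3 in DNCB skin, 204 ± 41.7 in scMSC and 281 ± 57.7 in scivMSC. Of that sum, Serpinb7 made up 14.3% ± 0.560 in control, 0.958% ± 0.0535 in DNCB skin, 6.63% ± 1.47 in scMSC and 6.51% ± 1.67 in scivMSC. Serpinb3a made up 2.13% ± 1.51, 11% ± 1.34, 1.49% ± 0.378 and 2.33% ± 0.174 in the same order, so that its share exceeded that of Serpinb7 in DNCB alone. Serpinb5 made up the largest mean share in all 4 groups, with 37.4% ± 0.565, 32.3% ± 2.50, 55.0% ± 5.63 and 46.7% ± 1.14.

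Some keratinocyte markers moved with these genes. The 4 stress keratins summed to 484 to 553 FPKM in control, 7079 to 8807 in DNCB skin, 683 to 1453 in scMSC and 1152 to 4581 in scivMSC. The 5 basal markers summed to 1691 to 2608, 8058 to 10296, 1561 to 2159 and 2462 to 5267 FPKM, and none of these 9 markers was at the floor in every library. The basal sum is mostly Krt5 and Krt14, the 2 of the 5 called higher in DNCB against control (1.27 ± 0.22, edgeR adjusted p = 0.0028, and 2.65 ± 0.39, 0.0013). Col17a1 overlapped between control and DNCB, with 43.3 to 81.3 and 55.8 to 68.4 FPKM, and Trp63 had at most 18.4 FPKM in control and 24.9 to 33.3 in the 9 exposed libraries. The sum of the 5 suprabasal markers (Krt1, Krt10, Lor, Ivl and Flg), mostly Krt1 and Krt10, overlapped between all groups, with 3800 to 9667 FPKM in control and 5340 to 9234 in DNCB. Of these only Lor (loricrin, of the cornified envelope) was called, with 277 to 370 FPKM in DNCB skin and 602 to 2380 in the 9 other libraries, lower by -2.71 ± 0.36 against control (edgeR adjusted p = 9.5e-04), -1.79 ± 0.35 against scMSC (0.0084) and -2.18 ± 0.36 against scivMSC (0.0072), the same direction as Serpinb7 and Serpinb13. The part of these markers in the Serpin changes was not tested.

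**Figure D3:**
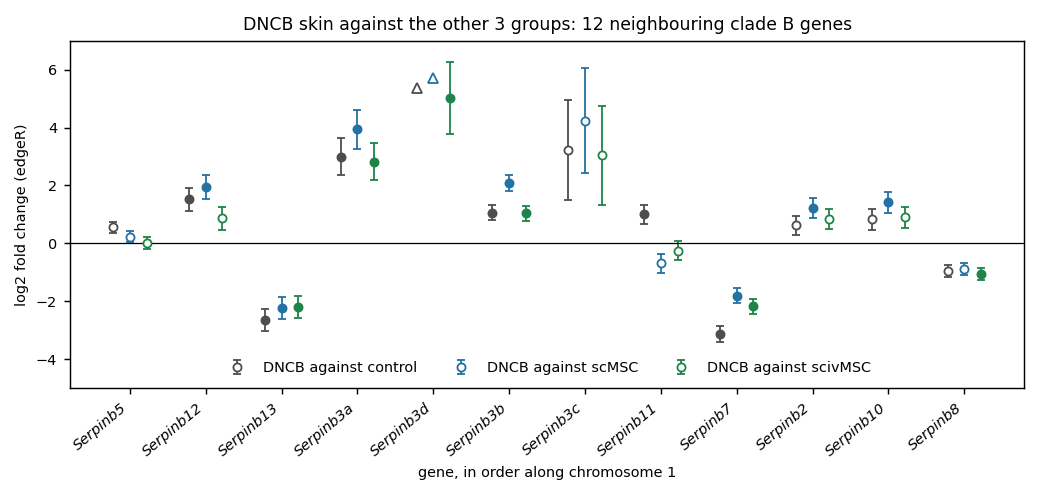
Log2 fold change of DNCB skin against each other group (y axis; bars are SE) for the 12 clade B genes in their order along chromosome 1 (x axis). Filled circles are called and open circles not; open triangles mark lower bounds for Serpinb3d against groups at the floor. Serpinb13, on the negative side in all 3 comparisons, stands between neighbours on the positive side, and so does Serpinb7 in the comparison with control.

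Of the 2 genes at the end of the array that are outside the squamous list, 1 was higher and 1 lower in DNCB. Serpinb10 (bomapin), known from blood-forming cells, had 2.20 to 3.06 FPKM in control, 4.69 to 6.67 in DNCB skin, 1.17 to 3.54 in scMSC and 2.43 to 3.61 in scivMSC. DNCB exceeded all other libraries, yet only the difference from scMSC passed (1.42 ± 0.37, edgeR adjusted p = 0.029; 0.83 ± 0.36 and 0.12 against control), and it was lost in 5 of 12 fits, those without any DNCB library, scMSC 2 or scMSC 3 (edgeR adjusted p 0.00239 to 0.104), and was 2.07 without scMSC 1. Its locus overlaps that of Serpinb2, and reads of the 2 genes may have been shared.

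Serpinb8, an inhibitor of furin, had 9.12 to 10.1 FPKM in DNCB skin, below all other libraries (13.1 to 25.1). The difference passed only against scivMSC (-1.05 ± 0.20, edgeR adjusted p = 0.013) and was lost there without DNCB 2 or scivMSC 1 (-1.16 to -0.86, edgeR adjusted p 0.0117 to 0.0566). Against control it was -0.96 ± 0.20 (edgeR adjusted p = 0.0061) and against scMSC -0.89 ± 0.20 (0.015), both short of the fold limit.

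Outside clade B, the risers in DNCB skin included Serpina3n and Serpinh1. Serpina3n, an acute-phase relative of antichymotrypsin that inhibits granzyme B and leukocyte elastase, had 13.2, 11.8 and 12.9 FPKM in control, 87.2, 66.5 and 147 in DNCB skin, 27.5, 12.0 and 14.3 in scMSC and 31.3, 44.4 and 20.2 in scivMSC. DNCB was above all others, by 2.80 ± 0.37 against control (edgeR adjusted p = 9.3e-04), 2.47 ± 0.37 against scMSC (0.0027) and 1.65 ± 0.36 against scivMSC (0.021). The last call was lost without DNCB 1, DNCB 3, scivMSC 1 or scivMSC 3 (1.28 to 1.94, edgeR adjusted p 0.0128 to 0.0792). The scivMSC libraries lay above control by 1.15 ± 0.35, which did not pass (edgeR adjusted p = 0.056).

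Serpinh1, the collagen chaperone of the endoplasmic reticulum, had 17.0, 37.2 and 17.7 FPKM in control, 178, 172 and 155 in DNCB skin, 86.4, 50.7 and 59.0 in scMSC and 65.3, 128 and 53.9 in scivMSC. The 3 exposed groups were above control without overlap, by 2.61 ± 0.38 in DNCB (edgeR adjusted p = 0.0013), 1.26 ± 0.37 in scMSC (0.036) and 1.57 ± 0.37 in scivMSC (0.020). DNCB was also higher than scMSC (1.35 ± 0.37, edgeR adjusted p = 0.035), and its difference from scivMSC, 1.04 ± 0.36, did not pass (0.11), although it did without scivMSC 2 and with DESeq2. The call of DNCB against scMSC was lost in 5 of 12 fits, without any DNCB library, scMSC 2 or scMSC 3 (edgeR adjusted p 0.016 to 0.121). The call of scMSC against control was lost in 8 of 12, without control 1 or 3, any DNCB or any scMSC library (0.0121 to 0.141), and that of scivMSC without control 1, control 3 or scivMSC 2 (0.0112 to 0.0859). The fibroblast list, 6 of 6 genes detected, summed to 232 to 346 FPKM in control, 1916 to 2233 in DNCB skin, 245 to 750 in scMSC and 124 to 946 in scivMSC, and its part in this result was not tested.

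The neutrophil list (Csf3r, Cxcr2, Ly6g, Mmp8, Retnlg and Camp, all found) summed to 2.91 to 5.22 FPKM in control, 104 to 152 in DNCB skin, 2.58 to 4.15 in scMSC and 2.83 to 12.1 in scivMSC, the same order of DNCB above the rest as Serpina3n. The stress keratin, basal keratinocyte and fibroblast sums given above had this order too, so it is not particular to neutrophils. The part of these lists in the Serpina3n change was not tested. Transcripts of the proteases that neutrophils carry were low, and the proteins were not measured. Elane and Ctsg did not reach the limit for testing, and Prtn3 had 0.102 to 0.756 FPKM in control and 0.718 to 1.56 in DNCB, a difference of 1.16 ± 0.84 that did not pass (edgeR adjusted p = 0.35).

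Serpinb6c, a paralog of the cathepsin G inhibitor Serpinb6a, had 0.954, 1.72 and 3.31 FPKM in control, 16.4, 17.6 and 13.8 in DNCB skin, 2.53, 1.08 and 2.07 in scMSC and 3.81, 17.3 and 3.83 in scivMSC. Library scivMSC 2, the one with high stress keratins, was at the level of DNCB skin, and the other 8 libraries outside DNCB were at most 3.83. The gene rose by 2.83 ± 0.62 against control (edgeR adjusted p = 0.0078) and 3.06 ± 0.63 against scMSC (0.010). Against scivMSC the difference was 0.96 ± 0.59 (edgeR adjusted p = 0.38), and without scivMSC 2 it was 2.03 and passed (0.029).

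Low-level risers were Serpina9, Serpina11 and Serpina3m against control and Serpina3g against scMSC. Serpina9 (centerin), known from germinal center B cells, had 0, 0.138 and 0.176 FPKM in control, 1.69, 2.84 and 2.14 in DNCB and 0.249 to 0.369 in the 6 MSC libraries. It rose by 4.23 ± 0.90 against control (edgeR adjusted p = 0.0068; 3.61 without control 1), while its differences from scMSC (2.80 ± 0.84, 0.052) and scivMSC (2.84 ± 0.84, 0.065) just missed. These last differences passed under 7 and 6 of the 24 alternatives, among them DESeq2, limma on log2(FPKM + 0.1) and the 6 libraries alone. Serpina11 rose by 2.13 ± 0.68 (edgeR adjusted p = 0.041) from 0.0658 to 0.203 FPKM in control, and its calls were lost in 9 of 12 fits, all but those without scMSC 1, scivMSC 2 or scivMSC 3 (0.0245 to 0.125). Serpina3m rose by 1.66 ± 0.50 (edgeR adjusted p = 0.032), lost in 5 of 12, without any control library, DNCB 2 or DNCB 3 (0.0155 to 0.122). Serpina3g, an inhibitor of lysosomal cathepsins in leukocytes, was higher than in scMSC by 1.69 ± 0.48 (edgeR adjusted p = 0.042), lost in 10 of 12, all but those without scMSC 2 (where it was 2.32) or scivMSC 3 (0.0218 to 0.133). All 4 had means under 1 FPKM.

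The genes that fell in DNCB skin outside the squamous list were Serpina3b, Serpina3j, Serpinb6e and Serpinb1c, against all 3 groups. Serpina3b had 32.0, 24.5 and 16.6 FPKM in control, 1.18, 0.505 and 0.518 in DNCB skin, 42.4, 10.2 and 9.94 in scMSC and 26.9, 8.93 and 59.4 in scivMSC. Serpina3j had 33.2, 33.8 and 45.0, then 3.43, 0.786 and 1.08, then 70.5, 19.7 and 18.6, then 59.9, 20.4 and 97.9 FPKM in the same order of groups. Both are paralogs of antichymotrypsin, and in both scMSC 1 and scivMSC 3 were the highest libraries of their groups.

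Serpina3b was lower in DNCB by -5.24 ± 0.86 against control (edgeR adjusted p = 0.0019), -4.82 ± 0.84 against scMSC (0.0050; -3.83 without scMSC 1) and -5.48 ± 0.86 against scivMSC (0.0064; -4.59 without scivMSC 3). Serpina3j was lower by -4.58 ± 0.79 (edgeR adjusted p = 0.0025; -5.49 without DNCB 1), -4.36 ± 0.79 (0.0058; -5.27 without DNCB 1 and -3.50 without scMSC 1) and -5.11 ± 0.81 (0.0066; -6.02 without DNCB 1 and -4.49 without scivMSC 3). All 6 calls held under all 24 alternatives.

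Serpinb6e had 2.38, 1.71 and 1.44 FPKM in control, 0 in every DNCB library, 4.49, 0.592 and 0.320 in scMSC and 2.94, 1.36 and 4.36 in scivMSC. With DNCB at the floor, it was at least 20.8-fold lower than in control, at least 17.7-fold lower than in scMSC (4.78-fold without scMSC 1, the highest library) and at least 29.2-fold lower than in scivMSC. Serpinb1c had 1.25, 0.879 and 0.412 FPKM in control, 0.0619, 0.0561 and 0.0572 in DNCB skin, 1.07, 0.961 and 0.529 in scMSC and 1.71, 0.576 and 3.06 in scivMSC. With DNCB at the floor it was at least 10.6-fold, 9.5-fold and 19.9-fold lower than in control, scMSC and scivMSC, the last being 12.2-fold without scivMSC 3. The call for Serpinb6e against scMSC and those for Serpinb1c against control and scMSC were lost only with limma at a pseudocount of 1 FPKM.

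The sebaceous gland list (Elovl3, Awat2, Mc5r and Scd3, all found) moved with these 4 genes. It summed to 118 to 159 FPKM in control, 5.45 to 18.1 in DNCB skin, 74.4 to 115 in scMSC and 69.9 to 213 in scivMSC, with the highest values of the MSC groups in scMSC 1 and scivMSC 3. Its part in the falls was not tested.

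Serpina12 (vaspin), an inhibitor of kallikrein-related peptidase Klk7, had 17.3, 23.6 and 36.8 FPKM in control, 9.82, 12.7 and 7.81 in DNCB skin, 26.9, 16.3 and 10.8 in scMSC and 27.3, 22.4 and 21.3 in scivMSC. It fell against control by -1.53 ± 0.33 (edgeR adjusted p = 0.0071) and was lower than in scivMSC by -1.23 ± 0.33 (0.044), the latter lost in 8 of 12 fits, without control 2, any DNCB library, scMSC 2 or any scivMSC library (0.0268 to 0.149). DNCB overlapped scMSC, with a difference of -0.85 ± 0.33 (edgeR adjusted p = 0.12). Serpinb6d was called only against scivMSC, with 0.125 to 0.717 FPKM in DNCB and 2.84 to 5.75 in scivMSC (-3.28 ± 0.80, edgeR adjusted p = 0.032; -3.97 without DNCB 1), and was lost in 5 of 12 fits, without any DNCB library, scivMSC 1 or scivMSC 3 (0.0279 to 0.107).

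**Figure D4:**
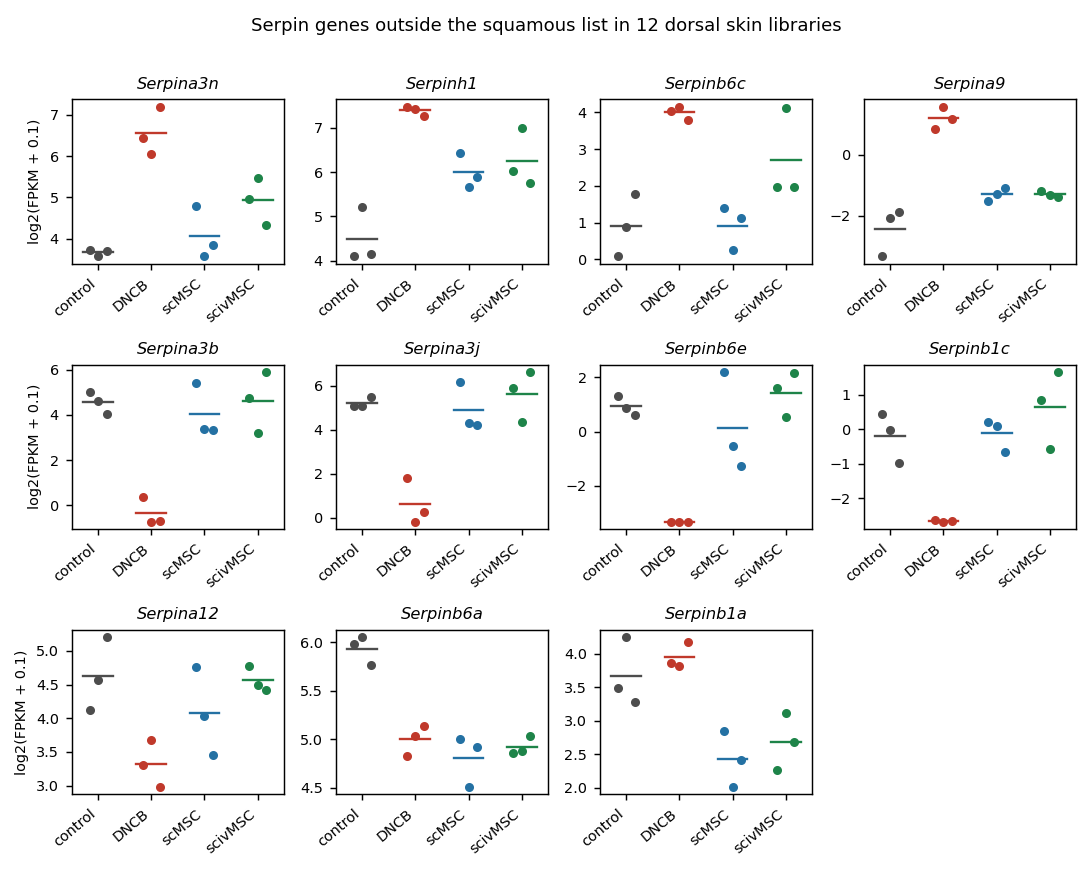
Levels of 11 Serpin genes outside the squamous list, as log2(FPKM + 0.1) on the y axis, in the 4 groups. Points are libraries in the order 1 to 3 and lines are means of the 3 log2 values. The first row holds risers in DNCB skin, with scivMSC 2 high for Serpinb6c, and Serpina3b, Serpina3j, Serpinb6e and Serpinb1c are at their lowest in DNCB.

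Serpinb1a and Serpinb6a separated the groups otherwise. Serpinb1a, an inhibitor of neutrophil elastase and proteinase 3, had 11.1, 18.9 and 9.63 FPKM in control, 14.5, 14.0 and 18.1 in DNCB skin, 7.08, 3.95 and 5.25 in scMSC and 4.73, 8.57 and 6.32 in scivMSC. Control and DNCB overlapped and both stood above all 6 MSC libraries. DNCB was higher than scMSC by 1.50 ± 0.31 (edgeR adjusted p = 0.010) and than scivMSC by 1.24 ± 0.31 (0.033), and the MSC groups were lower than control by -1.47 ± 0.31 (0.0087) and -1.20 ± 0.31 (0.027). The DNCB call against scivMSC was lost in 5 of 12 fits, without any DNCB library, scivMSC 1 or scivMSC 3 (edgeR adjusted p 0.0199 to 0.119), and that of scivMSC against control without control 2 or scivMSC 1 (0.0161 to 0.0939).

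Serpinb6a had 63.3, 66.3 and 54.2 FPKM in control and 22.7 to 35.1 in the 9 exposed libraries. It fell by -1.13 ± 0.16 in DNCB (edgeR adjusted p = 0.0011), -1.29 ± 0.16 in scMSC (0.0011) and -1.19 ± 0.16 in scivMSC (0.0039) against control. With library size alone as the scaling, or with limma on FPKM, the DNCB change was short of the fold limit (-1.28 to -0.92 over the 24 alternatives, adjusted p at most 0.0067). The skeletal muscle list (Acta1, Myh4, Ckm and Tnnt3, all found) summed to 11721 to 17161 FPKM in control and 3150 to 8490 in the exposed groups, and its part was not tested. Serpinb6a, Serpinb11 and Serpinh1 were the 3 members called against control in all 3 exposed groups. These comparisons share the control libraries, and the share of all genes called in all 3 was not counted.

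The abundant secreted serpins of the dermis changed less. Serping1, the C1 inhibitor of complement and contact activation, had 47.5 to 77.3 FPKM in control, 70.3 to 93.6 in DNCB skin, 28.7 to 85.0 in scMSC and 13.1 to 74.1 in scivMSC, and Serpinf1, pigment epithelium-derived factor, 20.6 to 30.7, 43.4 to 54.6, 13.6 to 35.3 and 7.48 to 30.5. The lowest value of each was in scivMSC 3, the library with few fibroblast transcripts. Their differences between DNCB and control, 0.21 ± 0.50 (edgeR adjusted p = 0.81) and 0.67 ± 0.44 (0.30), did not pass. Serpine2 (protease nexin 1), an inhibitor of thrombin and urokinase, had 8.40 to 9.16 FPKM in DNCB and 3.05 to 6.47 in the MSC groups, and its differences, 0.94 ± 0.25 from scMSC (edgeR adjusted p = 0.030) and 0.95 ± 0.25 from scivMSC (0.040), were short of the fold limit. Serpine2 was not called against control in any group. At an unadjusted edgeR p under 0.05 it was lower than control in scMSC and scivMSC, and DNCB against control did not reach that limit.

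Serpina1b and Serpina3h were also named for their level and were not called. Serpina1b, an antitrypsin gene, had 3.97 to 5.80 FPKM in control and 5.21 to 12.5 in DNCB (0.74 ± 0.39, edgeR adjusted p = 0.20), the highest in DNCB 2. Of the hepatocyte list (Alb, Apob, Fgb and Ttr), Alb (95.0 FPKM), Apob and Ttr were also highest in DNCB 2, and Fgb was highest in scMSC 1. The part of this list was not tested. Transcripts of the Serpina1 genes are 92.1% to 97.9% identical, so the single member is uncertain. Serpina3h, annotated as a pseudogene, had 9.98 to 34.1 FPKM over the 12 libraries (-0.54 ± 0.34 in DNCB against control, edgeR adjusted p = 0.28).

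**Figure D5:**
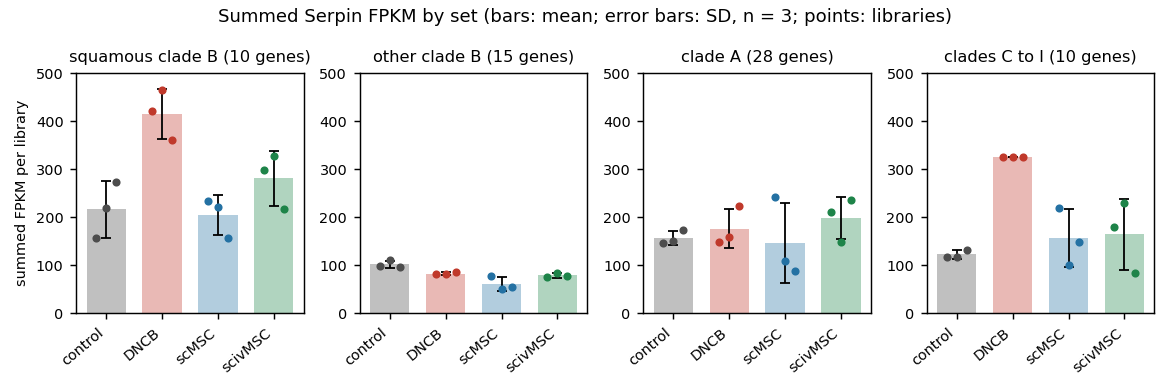
Summed FPKM per library (y axis, from 0) of the squamous clade B list, the other clade B genes, clade A and clades C to I in the 4 groups. Bars are means, error bars SD (n = 3) and points libraries. The sums of the squamous list and of clades C to I are highest in DNCB skin, and those of clade A overlap between all groups.

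By clade, the sum of clades C to I was 123 ± 8.76 FPKM (SD, n = 3) in control, 325 ± 0.270 in DNCB skin, 156 ± 60.0 in scMSC and 165 ± 74.5 in scivMSC, with Serpinh1 as its most abundant gene in DNCB. The clade A sum was 157 ± 14.1, 176 ± 41.0, 147 ± 83.6 and 199 ± 44.7 FPKM, as Serpina3n rose while Serpina3b and Serpina3j fell. The 15 other clade B genes summed to 102 ± 7.64, 82.7 ± 2.51, 61.0 ± 13.8 and 79.0 ± 4.75 FPKM. The squamous list held 35.7% ± 5.22 of all Serpin FPKM in control and 41.5% ± 4.65 in DNCB skin, a difference within the spread of libraries, and the other clade B genes 17.3% ± 2.55 and 8.28% ± 0.345.

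Genes of 6 families (Serpina1, Serpina3, Serpinb1, Serpinb3, Serpinb6 and Serpinb9) were also summed. In DNCB against control, 1 family sum was called (Serpinb3) where 4 families had at least 1 called member. In scMSC and scivMSC against control 3 and 2 sums were called, as many as the families with a called member. The Serpina3 sum, in which Serpina3n rose and Serpina3b and Serpina3j fell, differed by 0.10 ± 0.41 (edgeR adjusted p = 0.89), and the Serpinb1 sum by -0.017 ± 0.28 (0.98). The Serpinb6 sum fell by -0.98 ± 0.15 in DNCB (edgeR adjusted p = 0.0016, short of the fold limit) and was lower than control by -1.25 ± 0.15 in scMSC (0.0012) and -1.04 ± 0.15 in scivMSC (0.0049).

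Proteases and partners of serpins were followed as a list of 34 genes, of which 32 were tested. In DNCB against control 8 rose and 0 fell (background 6.59% higher and 7.57% lower), against scMSC 5 were higher and 2 lower (3.84% and 4.66%), and against scivMSC 3 were higher and 1 lower (2.33% and 3.13%). Plaur, the urokinase receptor, had 0.668 to 1.86 FPKM in control, 19.3 to 37.0 in DNCB skin, 0.695 to 2.07 in scMSC and 1.31 to 4.47 in scivMSC. It rose by 4.14 ± 0.59 against control (edgeR adjusted p = 0.0011), 4.14 ± 0.59 against scMSC (0.0024) and 3.45 ± 0.57 against scivMSC (0.0075; 4.06 without scivMSC 2).

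Urokinase itself, Plau, rose from 18.6 to 30.9 FPKM in control to 49.4 to 63.0 in DNCB (1.02 ± 0.29, edgeR adjusted p = 0.025), a call lost without control 1, control 2, DNCB 2, DNCB 3, scMSC 2 or scivMSC 3. Plat, tissue plasminogen activator, rose by 1.35 ± 0.32 (edgeR adjusted p = 0.011; lost without control 1). F10, coagulation factor X, had 0.277 to 0.514 FPKM in control and 3.62 to 5.39 in DNCB and exceeded every other group in DNCB skin, by 3.15 ± 0.47, 3.26 ± 0.47 and 2.87 ± 0.47 (edgeR adjusted p = 0.0014, 0.0025 and 0.0070). The mast cell tryptase Tpsab1 rose by 4.22 ± 0.81 against control (edgeR adjusted p = 0.0041). Its neighbour Tpsb2 rose by 1.95 ± 0.57 (edgeR adjusted p = 0.028), lost without any control or DNCB library. The complement protease Masp1 rose by 1.11 ± 0.25 (edgeR adjusted p = 0.0092), lost without control 3. Lrp1, the clearance receptor of serpin complexes, rose by 1.18 ± 0.34 (edgeR adjusted p = 0.026), lost without control 1, control 2, DNCB 1 or DNCB 3.

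St14 (matriptase), a membrane protease of the epidermis, had 7.69 to 12.0 FPKM in control, 9.07 to 11.3 in DNCB skin, 24.5 to 47.2 in scMSC and 18.4 to 29.1 in scivMSC. Control and DNCB overlapped below both MSC groups, and DNCB was lower by -1.94 ± 0.28 than scMSC (edgeR adjusted p = 0.0026) and by -1.29 ± 0.28 than scivMSC (0.021), the latter lost without any DNCB library, scivMSC 1 or scivMSC 3. Against control it rose by 1.77 ± 0.28 in scMSC (edgeR adjusted p = 0.0026) and 1.12 ± 0.28 in scivMSC (0.024), the latter lost without control 1, control 2, scivMSC 1 or scivMSC 3. Hair shaft and root sheath genes, not at the floor as a list in any library, were highest in the MSC groups (1437 to 11333 FPKM, against 2.08 to 523 elsewhere), and their part was not tested.

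The MSC groups were also set against control. In scMSC 3 Serpin genes rose (Serpinb11, Serpinh1 and the pseudogene Serpina4-ps1) and 4 fell (Serpinb3b, Serpinb7, Serpinb1a and Serpinb6a), 7 of 52 where 9.32% of all genes were called (5.12% higher and 4.2% lower). In scivMSC 2 rose (Serpinb11 and Serpinh1) and 2 fell (Serpinb1a and Serpinb6a), 4 of 52 where 6.85% were called (3.5% higher and 3.35% lower). Serpinb3b in scMSC, at 18.9 to 36.2 FPKM, was lower than control by -1.01 ± 0.27 (edgeR adjusted p = 0.025), lost without control 2, control 3, scMSC 2 or scMSC 3 (-1.32 to -0.838, 0.00817 to 0.084). Serpina4-ps1 had 0.319 to 0.457 FPKM in scMSC and control at the floor, so it was at least 2.62-fold higher, a call lost without control 1 or scMSC 2. The median log2 fold change of the squamous list was -0.774 in scMSC and 0.177 in scivMSC, and that of the other members -0.188 and -0.0851.

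Between scMSC and scivMSC, 0 of 52 Serpin genes were called by edgeR, where 0.00457% of all genes (1 gene) were. At an unadjusted edgeR p under 0.05 there were 5, all lower in scMSC (Serpinb3b, Serpinb3d, Serpinb12, Serpinb6c and Serpina3n). The share of all genes at that unadjusted limit was not counted, so these 5 are not read as a difference between the routes. DESeq2 called Serpinb6c alone and limma on log2(FPKM + 0.1) none. The groups did not overlap for Serpinb6c, with 1.08 to 2.53 FPKM in scMSC and 3.81 to 17.3 in scivMSC. With 3 libraries a group an exact permutation test of a single value could not go below p = 0.10, so none was used.

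Of the remaining members, 18 were tested, not called and below a mean of 5 FPKM (0.116 to 4.75), with log2 fold changes of DNCB against control from -0.825 to 1.70 among the 16 above the floor. They include Serpina1a, Serpina1c, Serpina1d and Serpina1e, antithrombin (Serpinc1), heparin cofactor II (Serpind1), antiplasmin (Serpinf2), Serpinb9, which inhibits granzyme B, and neuroserpin (Serpini1). The 11 not tested had means of 0.00222 to 0.0988 FPKM and were Serpina3d-ps, Serpina3l-ps, Serpina5, Serpina7, Serpina16, Serpinb1b, Serpinb9b, Serpinb9e, Serpinb9f, Serpinb9h and Serpine3, of which 6 were at the floor in every library.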

How the data were processed

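Dorsal skin of 12 mice was profiled by RNA sequencing, with 3 libraries in each of the groups control, DNCB, scMSC and scivMSC. The table deposited by the authors gives FPKM, which the authors scaled for gene length and library size, and estimated counts, whole numbers not normalized between libraries. The submitters' processing notes name Bowtie 0.12.2, HISAT2 2.0, StringTie 1.3.0 and build mm8 without their roles, but all 63 Serpin loci overlap their GENCODE M21 position in GRCm38, and 55 have the same start and end. A fragment was read as about 4 estimated counts, and the floor was set at 3 fragments per library; floors and errors cover counting and the spread between libraries only. The estimated counts served as deposited, with no rounding needed.

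The 21890 genes whose mean reached 0.1 FPKM were compared by edgeR 4.0.16 with its quasi-likelihood F-test (R 4.3.3, TMM factors 0.887 to 1.06, common biological coefficient of variation 0.420, 1 model of the 4 groups), adjusted by Benjamini-Hochberg over all genes tested. SE were derived from the F statistic. Alternatives were DESeq2 1.42.0, limma 3.58.1, other filters and scalings, and leaving out each library. The fit was tested on simulated data. Named genes were every tested squamous gene, every other member called in at least 1 comparison and every other with a mean of at least 5 FPKM, 34 in all, of which 1 is not reported here singly and stays in the counts and sums. The members and lists were chosen with earlier results of these data known.

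The labels do not say whether same-numbered samples share a litter or batch, or whether the 3 samples of a group came from separate cages, so p-values measure the spread between these libraries. Promoters came from RefSeq (57 windows of 49 members), and transcript identity from GENCODE M21. The control samples are named Solvent in the labels. Blood was not analysed here.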

Additional observations from a re-analysis of the deposited data

How the results depend on the processing

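The single-gene values were followed under 24 alternatives, and none changed sign. The alternative with no limit on the fold reused the main fit, so it could neither lose a call nor change a sign. With the 6 libraries of a comparison alone, 4 Serpin genes instead of 7 were called in scMSC against control and 2 instead of 4 in scivMSC against control, and 0 proteases and partners instead of 2 in the latter. DESeq2 called 9 Serpin genes instead of 4 in scivMSC against control and 1 instead of 0 between scMSC and scivMSC. The share of all genes called was not counted under any alternative, including the fits without 1 library and with a replicate block. The counts of called genes in this section are therefore not read as a result about Serpin genes. With no filter 1 of the proteases and partners was called instead of 3 in scMSC against control, and with no limit on the fold 5. The median of the squamous list in scMSC against control was -0.25 instead of -0.774 as a difference of log2(FPKM + 0.1) means. As separate genes, 4 families instead of 1, 2 and 1 held a call in DNCB against control, scMSC and scivMSC.

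Without 1 library, the Serpin genes called ranged from 15 to 20 in DNCB against control, 14 to 18 against scMSC and 7 to 15 against scivMSC, from 5 to 9 in scMSC and 2 to 6 in scivMSC against control, and stayed at 0 between the MSC groups. The proteases and partners called ranged from 4 to 10, 3 to 7 and 2 to 6 in the DNCB comparisons and from 1 to 4 and 0 to 5 in the MSC groups against control. Serpinb7, Serpinb13, Serpina3b, Serpina3j, Serpinb6e and Serpinb1c, the fallers against all 3 groups, were called in each of these fits. Serpina3n, Serpinb3a, Serpinb3b and Serpinb3d each lost a call in at least 1. The cause of these shifts was not tested, but such fits have fewer samples.

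Deviations of same-numbered libraries correlated between -0.21 and 0.149 (1 of 18 pairs over 0.1), and other-numbered ones between -0.16 and 0.155. By this measure same-numbered libraries were no more alike than others. With so few libraries a group it cannot exclude a shared litter, cage or batch. With a replicate block, 20, 18 and 10 Serpin genes were called in DNCB against control, scMSC and scivMSC instead of 20, 18 and 15, and 4 instead of 7 proteases and partners against scMSC. Depth limits the genes under 1 FPKM, such as Serpinb3c, Serpina9 and Serpinb1c.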
